A study of Mus musculus with 20 samples.

Results

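The genes that move or hold calcium in the muscle fibre were followed through plantaris muscles of mice after sham surgery or mechanical overload (MOV), with or without a miR-1 mimic virus. The set held 10 genes, taken by name from the 54532 genes counted: the pumps Atp2a1 and Atp2a2, the pump regulators Sln and Pln, the release apparatus Ryr1, Cacna1s and Jph2, the stores Casq1 and Casq2, and the buffer Pvalb. All 10 were in both tables of counts. The rule names them by role and uses no measured value, although the set was drawn up with earlier results of these data known. The male C57BL/6J mice were 5 months old and had either a sham operation or MOV, in which part of the gastrocnemius and soleus, the muscles that share the work of the plantaris, is cut away. At surgery the left plantaris of a mouse received 50 µL of a control lentivirus and the right one 50 µL of a lentivirus that makes a miR-1 mimic. Both viruses carried a mouse CMV promoter and the TurboGFP reporter, and not all fibres were infected. RNA was taken 10 days later from whole muscle, which gave 4 groups of 5 libraries, named here by surgery and virus: sham control and sham mimic, and likewise MOV control and MOV mimic. These 20 libraries therefore came from 10 mice, 5 per surgery, and no group was free of virus.

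In a muscle fibre the action potential runs down the transverse tubules, where the voltage sensor opens the ryanodine receptor of the facing sarcoplasmic reticulum (SR), and calcium leaves the SR to start contraction. SERCA pumps then return it to the SR, where calsequestrin holds it, and in fast fibres the soluble protein parvalbumin binds calcium in the cytosol and speeds relaxation. Fast fibres use SERCA1 and calsequestrin 1, whereas slow fibres and the heart use SERCA2 and more calsequestrin 2, and sarcolipin and phospholamban are small membrane peptides that restrain the pumps.

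Because the virus in the right muscles made a miR-1 mimic, the transcripts of the 10 genes were searched for the letters that pair with the miR-1 seed. The mature strand of miR-1 was not in the sequence tables used here. miR-206-3p, another muscle miRNA, is known to share its seed, and its 22 bases at chr1:20679055-20679076 (plus strand, GRCm38.p6, RefSeq) are shown with the seed, bases 2 to 8, in capitals.
miR-206-3p: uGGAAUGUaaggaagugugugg
The motif searched, on the sense strand of 1 GENCODE M1 transcript per gene, was ACATTCC. None of the 10 genes had it in the 3′ UTR, and Cacna1s alone had it in its coding sequence, at positions 4576 to 4582 counted from the first base of the start codon. Among all 22594 genes with a transcript, 9.46% had the motif in the coding sequence, and 7.98% of the 19485 genes with a 3′ UTR had it there. The only match is shown with the motif in capitals.
Cacna1s coding sequence: aattctatgccACATTCCtcatccaggag
A match of letters is a description and was not tested as a binding site.

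The promoters were searched as well, from 250 bases before to 50 bases after each transcript start (RefSeq, GRCm38.p6), for CAGCTG, an E-box core that the muscle regulators MyoD and myogenin bind. CAGCTG reads the same on both strands. Promoters were at hand for 8 of the 10 genes, and those of Atp2a1, Pln, Cacna1s, Jph2 and Casq1 held the motif (5 of 8), whereas those of Ryr1, Casq2 and Pvalb did not. Counted by promoter, since a gene can have several, 6 of 10 promoters of these 8 genes and 16.3% of all 32851 promoters held it. The promoters of Jph2 overlap and share a single match, in the window chr2:163397985-163398014, which is counted in each of them. The share of all genes with the motif was not computed. The windows below are shown because they set the fast-type genes Atp2a1 and Casq1 and the voltage sensor Cacna1s beside each other, with the motif in capitals. They lie at chr7:126463111-126463140 (minus strand), chr1:172220073-172220102 (minus strand) and chr1:136052676-136052705 (plus strand).
Atp2a1: cctcataaggacCAGCTGggggctgggggg
Casq1: gggggaaggaacCAGCTGctgggagggagc
Cacna1s: tggaaggaatgaCAGCTGcctggccgcagg

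Total counts ran from 12036360 to 23056525 per library, with a median of 16940547.5. Values below are counts scaled to a common library total (counts per 1e6 counts, CPM) after TMM scaling, which evens out differences in composition between libraries. The tissue label was checked against markers: 8 muscle fibre genes, among them Acta1, Ckm and Myh4, summed to between 66765 and 168316 CPM in the 20 libraries, while of 3 heart markers Myl7 was at 0 counts in all libraries and the sum never passed 5.96 CPM. Some libraries stood apart from their groups. The MOV libraries numbered 5 had 448 (control) and 361 CPM (mimic) of 6 slow-fibre markers, against 570 to 2145 CPM in the other 8 MOV libraries. The sham libraries numbered 1 had 881 and 1278 CPM of 5 fibroblast markers, against 3836 CPM or more in the other sham libraries. Results were therefore also computed without these pairs of libraries, a choice made after seeing the data. MOV control 4 and 5 had 3512 and 2342 CPM of the fibroblast markers, against 7649 to 8770 CPM in MOV control 1 to 3, and 192 and 212 CPM of 9 leukocyte markers, against 524 to 693 CPM. In bulk RNA, fewer cells of a type and less RNA per cell cannot be told apart.

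The 10 genes took between 2.87% and 4.13% of all counts in a library, and Atp2a1 alone between 1.08% and 2.42%. Levels of different genes were set side by side only per kilobase of exon. In sham control the order of mean CPM per kb was Pvalb (10488), Atp2a1 (5704), Casq1 (1773), Jph2 (208), Ryr1 (200.3), Cacna1s (110.2), Sln (63.5), Atp2a2 (47.6), Casq2 (26.2) and Pln (0.244). The ranges of the 5 libraries overlapped between Jph2 and Ryr1 and from Cacna1s down to Casq2, so these neighbours were not separated by their spread, whereas Pvalb, Atp2a1 and Casq1 were separate from each other and from the rest. In MOV control Sln stood next after Casq1, with 622 CPM per kb, against 1662 for Casq1 and 228 for Ryr1, and its range overlapped with both. The plot of CPM by library shows every value. Gene models of the reference overlap Atp2a1 (Rabep2), Pln (Cep85l), Ryr1, Jph2 and Casq1, and since the strand setting of the counting is not given in the sources used here, reads of such pairs may be shared.

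**Figure D1:**
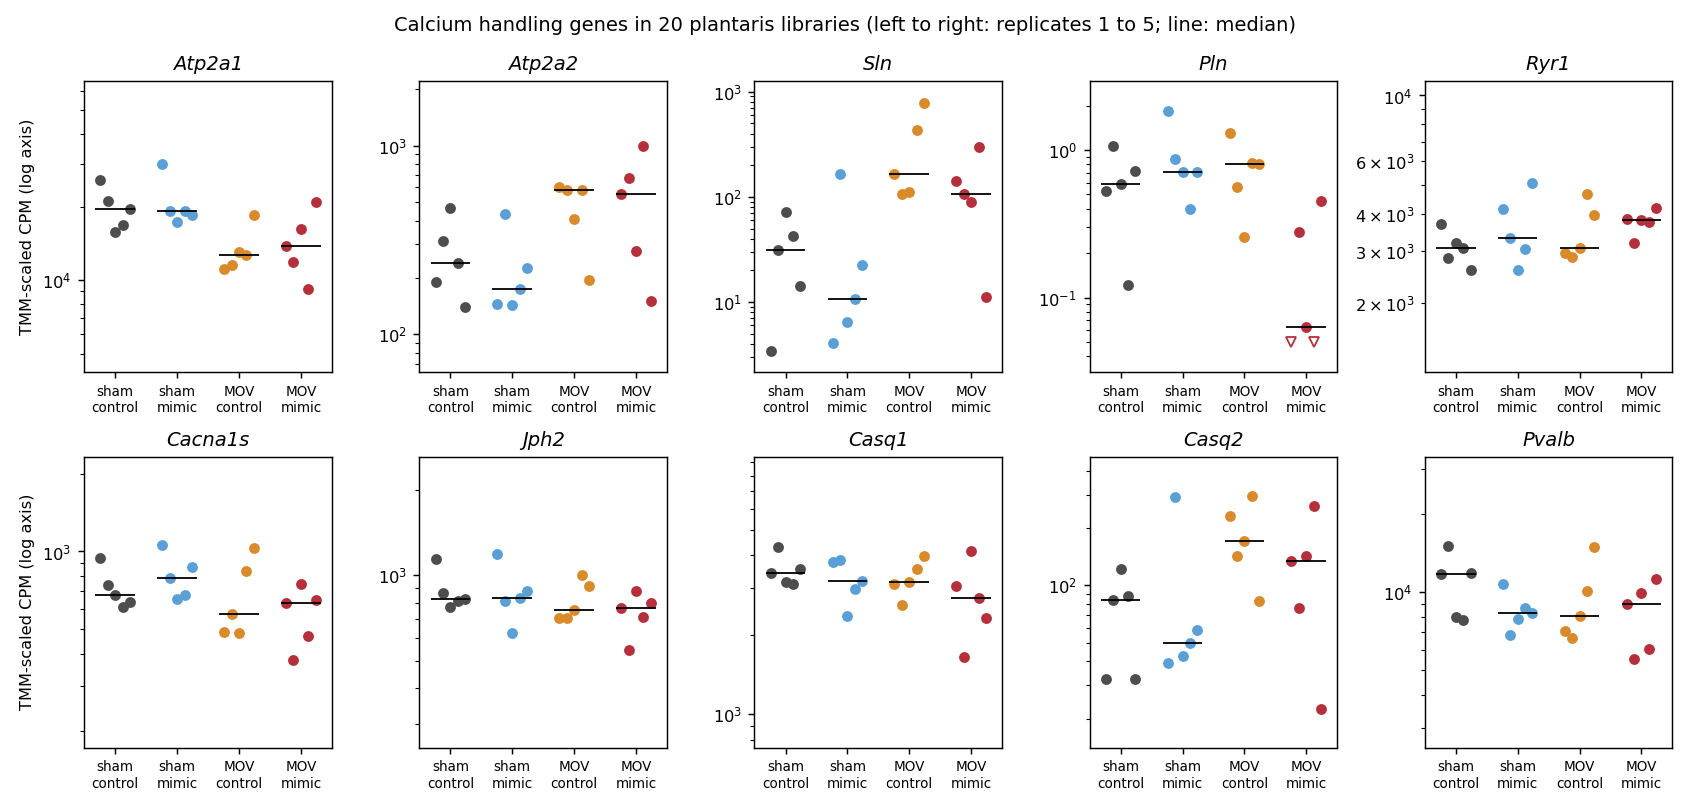
TMM-scaled CPM (log axes) of the 10 genes in each library, with replicates 1 to 5 from left to right in each group and the group median as a line; open triangles mark 0 counts. Sln is higher in all 5 MOV control libraries (106.5 to 788 CPM) than in all 5 sham control libraries (3.47 to 71.8 CPM), and every other panel shows overlapping groups for that comparison.

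Atp2a1 encodes SERCA1, the fast-fibre calcium pump (ENSMUSG00000030730, chr7:126445858-126463103, GRCm38.p6). Its CPM in sham control libraries 1 to 5 were 25812, 21081, 15845, 16932 and 19671. In MOV control they were 11120.4, 11583, 13068, 12649 and 18507. In MOV control 4 of the 5 libraries lay below every sham control library, and library 5 lay among them. The log2 fold change, MOV control minus sham control, was −0.54 ± 0.22 (SE), a 1.45-fold lower level, and did not pass the test (edgeR, adjusted p = 0.215). Sham mimic libraries held 29856, 19252, 17328, 19282 and 18482 CPM and MOV mimic libraries 13857, 11849.5, 16236, 9241 and 20925 CPM. Here too library 5 was the highest of the MOV group, and the difference was −0.50 ± 0.25 (edgeR, adjusted p = 0.406). The summed level of 8 muscle fibre markers was 101291 to 168316 CPM in sham control and 76138 to 118996 CPM in MOV control. Of the 8, 3 had a log2 fold change above 0 and 5 below (median −0.27, range −1.59 to 0.45), and their part in the Atp2a1 values was not tested.

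Atp2a2 encodes SERCA2, the pump of slow fibres and heart (ENSMUSG00000029467, chr5:122453513-122502225). Sham control libraries 1 to 5 held 189.3, 313.6, 469.3, 239.7 and 139.0 CPM. MOV control libraries held 600.9, 581.7, 407.5, 578.7 and 192.9 CPM. In MOV control 3 of the 5 libraries were above every sham control library, library 3 was just below the highest of them, and library 5 was within their range. The log2 fold change was 0.85 ± 0.35 (edgeR, adjusted p = 0.222). In sham mimic the values were 145.5, 434.6, 142.4, 174.6 and 224.8 CPM, and in MOV mimic 554.8, 674.6, 275.8, 997.7 and 151.0 CPM. MOV mimic thus spanned 6.61-fold from its library 5 to its library 4, and the difference to sham mimic was 1.29 ± 0.46 (edgeR, adjusted p = 0.306). Without the MOV libraries numbered 5, the log2 fold changes were 1.05 (control, adjusted p = 0.0727) and 1.52 (mimic, adjusted p = 0.0772), both by edgeR. These libraries had been set apart by low slow-fibre markers, with which Atp2a2 varied, and held the least Atp2a2 of their groups. Their omission was therefore bound to raise both differences. Without the sham libraries numbered 1 they were 0.76 (adjusted p = 0.398) and 1.17 (adjusted p = 0.545), also by edgeR. With single libraries left out they were 0.68 to 1.15 (control) and 0.92 to 1.66 (mimic).

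The ratio of the pumps per kilobase put these values together. Atp2a1 over Atp2a2 was 55.0 to 230.5 in sham control (median 115.1) and 30.2 to 156.3 in MOV control (median 35.6). Only library 5 of MOV control, at 156.3, lay inside the sham control range, since the next highest was 52.2. In sham mimic the ratio was 72.2 to 334.2 (median 179.9), and in MOV mimic 15.1 to 225.7 (median 40.7). The ratio was described and not tested.

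Sln encodes sarcolipin, the peptide that slows the SERCA pumps and uncouples transport from ATP use (ENSMUSG00000042045, chr9:53850251-53853849). Sham control libraries 1 to 5 held 3.47, 31.5, 71.8, 42.5 and 14.2 CPM. MOV control libraries held 166.4, 106.5, 112.2, 428.2 and 787.8 CPM. The groups did not overlap, from the lowest MOV control library at 106.5 CPM to the highest sham control library at 71.8 CPM. The log2 fold change was 3.31 ± 0.74, a 9.93-fold higher level, with an adjusted p = 0.0630 (edgeR), above the threshold of 0.05. Without MOV control 5, the library with the most Sln, it was 2.68 (adjusted p = 0.0562, edgeR). Sln was the only one of the 10 genes without overlap in this comparison (1 of 10), while 4.88% of all genes tested had none. DESeq2 called it (adjusted p = 0.00192), as did edgeR without the filter on low counts (adjusted p = 0.00893).

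Sham mimic libraries held 4.11, 165.7, 6.50, 10.6 and 22.4 CPM of Sln, and MOV mimic libraries 140.3, 106.9, 89.5, 300.4 and 11.2 CPM. Sham mimic 2 was above 4 of the 5 MOV mimic libraries and MOV mimic 5 was at a sham level. The difference was 1.68 ± 0.97 (edgeR, adjusted p = 0.476), 3.62 without sham mimic 2 (adjusted p = 0.304) and 1.08 without MOV mimic 4 (adjusted p = 0.712), also by edgeR. Within MOV, the mimic and control libraries numbered 1 to 4 were within a range of 89.5 to 428.2 CPM, whereas those numbered 5 held 11.2 and 787.8 CPM. The labels do not state that equal numbers are the same mouse. MOV mimic against MOV control gave −1.27 ± 0.69 (edgeR, adjusted p = 0.999), and −0.34 without both libraries numbered 5 (adjusted p = 1.0). With single libraries left out it was −1.86 (without MOV mimic 4) to −0.65 (without MOV control 5). MOV control 5 also had the highest sum of 3 Schwann cell markers, 61.4 CPM against 6.89 to 10.3 CPM in the other MOV control libraries. The lowest of these sums, 6.89 CPM, was that of MOV control 4, which was next in Sln at 428.2 CPM. The MOV control libraries with the most Sln, 4 and 5, were also those with the lowest sums of fibroblast and leukocyte markers. The part of these markers in the Sln values was not tested.

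Pln encodes phospholamban, the SERCA2 regulator of heart and slow fibres (ENSMUSG00000038583, chr10:53337686-53345999). It was near the limit of detection, with 0 to 27 counts per library and at most 1.84 CPM. MOV mimic libraries had 0, 6, 1, 0 and 7 counts, of which each 0 allows up to 3 counts, and the MOV control libraries 27, 13, 5, 13 and 11 counts. At these counts Pln was not tested in either comparison with MOV mimic, since it did not pass the filter on low counts. It entered the interaction of surgery and virus only because that fit also held the libraries of the other groups, so no estimate is given for it.

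Ryr1 encodes the calcium release channel of the SR (ENSMUSG00000030592, chr7:29003340-29125179). Its libraries lay between 2591 and 3701 CPM in sham control and between 2850.2 and 4654 CPM in MOV control, with overlapping ranges. The log2 fold change was 0.22 ± 0.19 (edgeR, adjusted p = 0.573). In MOV mimic its range was narrow, 3198 to 4184 CPM, inside that of sham mimic, 2582 to 5084 CPM.

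Cacna1s encodes the voltage-sensing subunit of the dihydropyridine receptor (ENSMUSG00000026407, chr1:136052806-136119822) and is the one gene of the 10 with the seed match shown above. It held 942, 743, 679, 611 and 637 CPM in sham control, and 488, 571, 484, 840.5 and 1032 CPM in MOV control. MOV control thus had both the lowest and the highest libraries of these. Its libraries 4 and 5, the highest, had the lowest sums of fibroblast and leukocyte markers in the group, whose part was not tested. The log2 fold change was −0.05 ± 0.22 (edgeR, adjusted p = 0.920). In MOV mimic it held 628, 380.1, 746, 472 and 649 CPM against 1061, 787, 655, 678 and 872 CPM in sham mimic. In MOV mimic 4 of the 5 libraries were below every sham mimic library, with −0.46 ± 0.21 (edgeR, adjusted p = 0.361). MOV mimic against MOV control, the comparison in which the mimic would be seen after overload, gave −0.24 ± 0.24 (edgeR, adjusted p = 0.999), with overlapping ranges.

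Jph2 encodes junctophilin 2, which ties the transverse tubule to the SR (ENSMUSG00000017817, chr2:163336242-163398049). It was between 777 and 1143 CPM in sham control and between 709 and 1002 CPM in MOV control, and the difference was −0.08 ± 0.16 (edgeR, adjusted p = 0.835). The 4 sham control libraries other than library 1 lay within 777 to 864 CPM. Ryr1 per kilobase was 1.63 to 2.15 times Cacna1s in sham control and 1.64 to 2.71 times in MOV control. The corresponding ranges were 1.67 to 2.49 in sham mimic and 2.18 to 3.59 in MOV mimic. The medians were 1.74 and 1.80 in the sham groups and 2.36 and 2.75 in the MOV groups, with overlap in both pairs of groups and no test.

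Casq1 encodes the calsequestrin of fast fibres, the main calcium store of the SR (ENSMUSG00000007122, chr1:172209894-172219895). It ranged from 3106 to 4293 CPM in sham control and from 2593 to 3988 CPM in MOV control, a difference of −0.06 ± 0.17 (edgeR, adjusted p = 0.887). MOV mimic was wider, from 1643 CPM in library 2 to 4147 CPM in library 3.

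Casq2, the calsequestrin of heart and slow fibres (ENSMUSG00000027861, chr3:102086415-102146514), differed more. Sham control libraries 1 to 5 held 32.2, 83.4, 122.7, 87.7 and 32.1 CPM. MOV control libraries held 230.8, 143.2, 171.8, 296.3 and 83.2 CPM. All MOV control libraries but library 5 were above every sham control library. The log2 fold change was 1.42 ± 0.41 (edgeR, adjusted p = 0.103). It passed the threshold with DESeq2 (adjusted p = 0.0109) and in edgeR without the filter (adjusted p = 0.0375). Sham mimic libraries held 38.9, 291.8, 42.4, 49.9 and 58.2 CPM and MOV mimic libraries 134.5, 76.3, 143.5, 261.2 and 22.5 CPM. Sham mimic 2 was thus the highest and MOV mimic 5 the lowest of these 10, and the difference of 0.45 ± 0.65 (edgeR, adjusted p = 0.795) became 1.47 without sham mimic 2 (adjusted p = 0.320). Against MOV control, MOV mimic gave −0.53 ± 0.49 (edgeR, adjusted p = 0.999), with −0.98 without MOV mimic 4 and −0.26 without MOV mimic 5. The mimic library was the lower one in 5 of 5 pairs of equal number, which the labels do not tie to a mouse.

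Pvalb encodes parvalbumin (ENSMUSG00000005716, chr15:78191112-78206400) and had the highest mean of the 10 per kilobase in each group. In sham mimic and MOV mimic its range overlapped with that of Atp2a1. Its CPM ran from 7832 to 15148 in sham control, from 6848 to 10761 in sham mimic, from 6668 to 14957 in MOV control and from 5532 to 11277 in MOV mimic. MOV control against sham control gave −0.19 ± 0.26 (edgeR, adjusted p = 0.751) and MOV mimic against sham mimic 0.00 ± 0.23 (edgeR, adjusted p = 0.995). Unlike Atp2a1, this fast-fibre gene had no MOV group mostly below its sham group. MOV control 5 was again the highest of its group, at 14957 CPM.

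In MOV control against sham control, then, 0 of the 10 genes passed edgeR's threshold, against 1 of 14974 genes tested (0.00668%). That gene was Nos1, named after its values were seen. At p under 0.05 before adjustment were 4 of the 10 (40.0%), with Sln, Casq2 and Atp2a2 higher and Atp2a1 lower, against 2726 genes (18.2%) in all. DESeq2 called 2 of 10, Sln and Casq2, and 913 of 14974 genes (6.1%). The median log2 fold change of the 10 was 0.08, beside 0.04 over all genes tested. Without sham control 3, the sham library with the most Sln, Casq2 and Atp2a2 among its group, edgeR called Sln (adjusted p = 0.0312) and Casq2 (adjusted p = 0.0480). It then called 426 of 15162 genes in all (2.81%). Leaving out the highest sham library widens these differences by itself, and no other omission of a single library called any of the 10. Leaving out MOV control 5 brought the genes called to 318 of 15307 (2.08%), with adjusted p of 0.0562 for Sln, 0.0504 for Casq2, 0.0727 for Atp2a2 and 0.0836 for Atp2a1. Other omissions raised these values. Over all omissions of a single library the largest adjusted p (edgeR) were 0.167 for Sln, 0.226 for Casq2, 0.399 for Atp2a2 and 0.397 for Atp2a1.

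In MOV mimic against sham mimic edgeR called 0 of 9 genes and 0.0% of 14918, with 1997 at p under 0.05 before adjustment, of which Atp2a2 and Cacna1s were 2. DESeq2 called none of the 9 and 223 of all genes. None of the 9 was free of overlap, beside 2.84% of all genes. MOV mimic against MOV control gave 0 of 9 called by edgeR, 0.0% of 15220 genes, and 0 of 9 without overlap beside 0.756%. DESeq2 called 3 genes there and none of the 9, and 641 genes but none of the 9 had p under 0.05 in edgeR. Sham mimic against sham control gave 0 of 10 called, 0.0% of 14746 genes in edgeR and 0 in DESeq2, with 254 genes but none of the 10 at p under 0.05 in edgeR, and 0 of 10 without overlap beside 0.359%. For the interaction edgeR called 0 of the 9 genes other than Pln and 0.0% of 16166 genes, with 426 genes but none of the 9 at p under 0.05, and DESeq2 called 1 gene, not among the 9. The interaction estimates were −1.63 ± 1.29 for Sln, −0.96 ± 0.84 for Casq2 and 0.44 ± 0.62 for Atp2a2 (edgeR, adjusted p = 1.0 for each). Without sham mimic 2, those of Sln, Casq2 and Atp2a2 became 0.32, 0.06 and 0.82, and without MOV mimic 4 they were −2.24, −1.41 and 0.08. The difference between viruses in the effect of MOV thus passed the test for none of the 9. These comparisons share groups of libraries, so that they are not independent of each other.

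**Figure D2:**
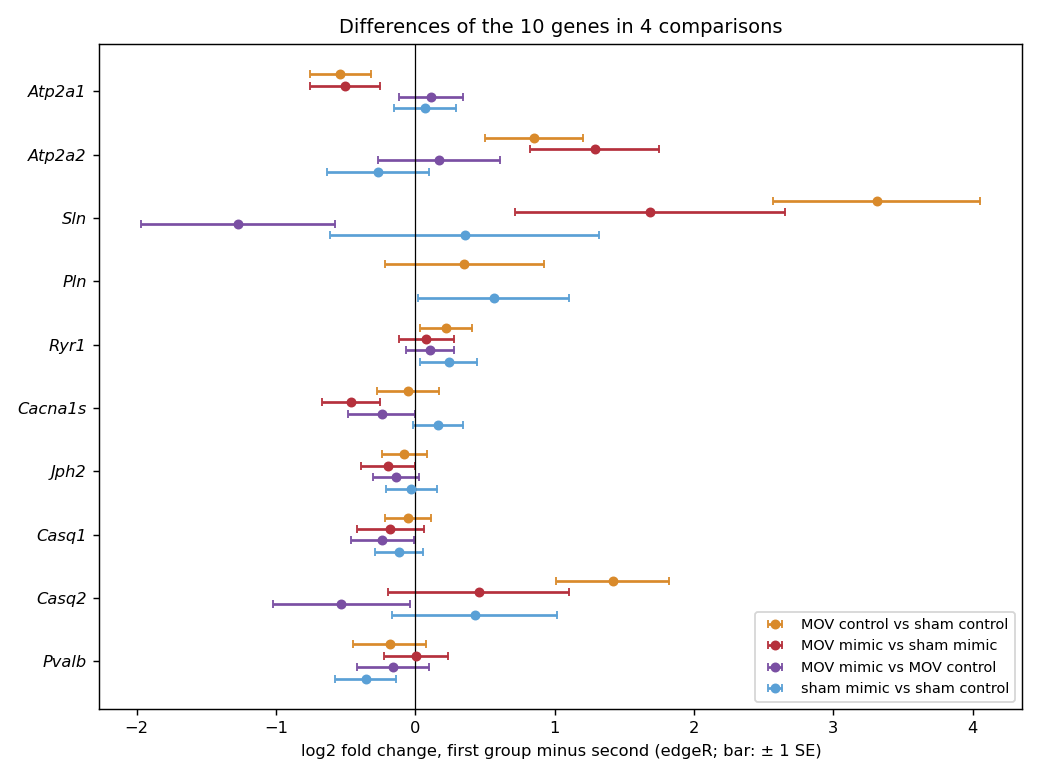
Log2 fold change of each gene (x axis, first group minus second, edgeR; bars are ± 1 SE) in 4 comparisons of 5 against 5 libraries. Sln (3.31), Casq2 (1.42) and Atp2a2 (0.85) lie to the right for MOV control against sham control and Atp2a1 (−0.54) to the left, while no estimate passed an adjusted p of 0.05; Pln has no point in the comparisons with MOV mimic.

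Sln, Casq2 and Atp2a2 varied together among libraries. Over the 20 libraries, as log2 CPM deviations from group means, Pearson r was 0.84 for Atp2a2 and Casq2, 0.79 for Sln and Casq2 and 0.61 for Sln and Atp2a2. Atp2a1 and Pvalb had r = 0.83 with each other, and −0.77 and −0.71 with Atp2a2. Among Cacna1s, Jph2 and Ryr1 r was 0.86 for Cacna1s and Jph2, 0.76 for Ryr1 and Jph2 and 0.73 for Ryr1 and Cacna1s. For Cacna1s r was also 0.78 with Pvalb and 0.74 with Atp2a1, and for Jph2 0.70 with Atp2a1 and 0.66 with Pvalb. Casq1 had r of 0.69 with Jph2, 0.67 with Cacna1s, 0.58 with Pvalb, 0.41 with Ryr1, 0.39 with Atp2a1 and 0.30 with Casq2. These correlations are descriptions over 20 libraries of 10 mice, in which the genes of a library share its depth, its composition and its TMM factor.

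**Figure D3:**
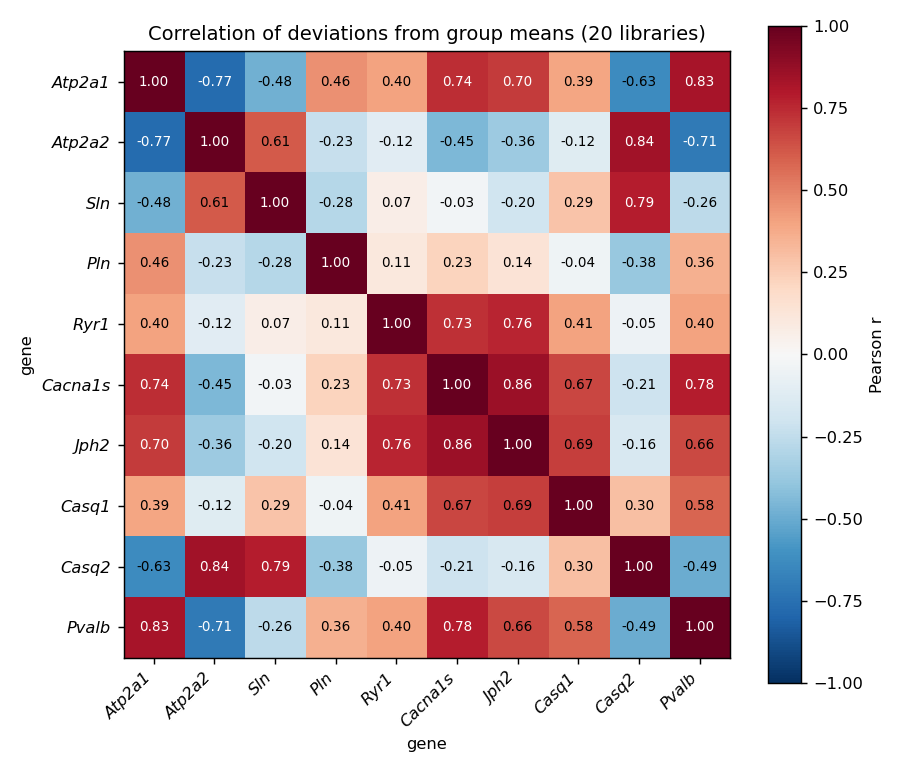
Pearson r between each pair of the 10 genes (both axes) over 20 libraries, on log2 CPM deviations from group means. Atp2a2, Sln and Casq2 are positively correlated with each other (0.61 to 0.84), as are Cacna1s, Jph2 and Ryr1 (0.73 to 0.86), and Atp2a1 runs against Atp2a2 (−0.77).

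Markers of slow fibres and of young fibres varied with the same genes. The 6 slow-fibre markers (Myh7, Myl2, Myl3, Tnnt1, Tnni1, Tnnc1) summed to 373 to 1015 CPM in sham control and 448 to 1119 CPM in MOV control, and to 380.1 to 911 CPM in sham mimic and 361 to 2145 CPM in MOV mimic. Of the 6, 4 were above 0 in MOV control against sham control (median log2 fold change 1.00) and 5 of 6 in MOV mimic against sham mimic (median 1.5), with 0 called by edgeR. Correlations with markers, here and below, were not taken with the sum. They used the mean of the markers' log2 CPM deviations from group means, with each marker of equal weight. For the 6 slow-fibre markers r was 0.93 for Atp2a2, 0.85 for Casq2, 0.66 for Sln and −0.75 for Atp2a1. The 5 markers of satellite cells and regenerating fibres (Pax7, Myod1, Myog, Myh3, Myh8), mostly the embryonic and perinatal myosins, summed to 56.9 to 666 CPM in sham control, 279 to 1279 CPM in MOV control, 65.02 to 1573 CPM in sham mimic and 78.4 to 1158 CPM in MOV mimic. All 5 were above 0 in MOV control against sham control (median 1.18) and in MOV mimic against sham mimic (median 0.52), with none called by edgeR. The mean deviation of these 5 markers, each of equal weight, correlated at 0.95 with Casq2, 0.84 with Atp2a2 and 0.82 with Sln. Sham mimic 2, with the most Sln and Casq2 among sham libraries, also had the most of these markers among all 20, at 1573 CPM. Whether fibre type or young fibres had a part in the values of the 3 genes was not tested.

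**Figure D4:**
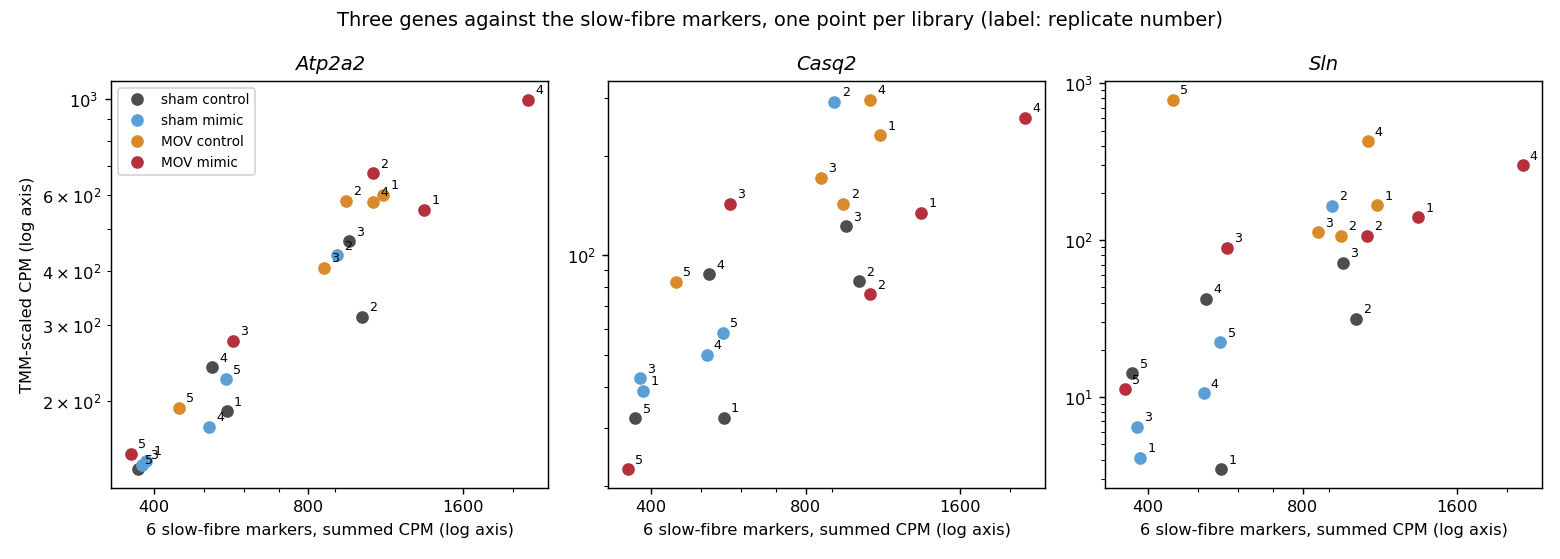
CPM of Atp2a2, Casq2 and Sln (y axes, log) against the summed CPM of 6 slow-fibre markers (x axis, log), with 1 point per library labelled by its replicate number. Atp2a2 follows the markers across all groups, both MOV libraries numbered 5 lie at the low end, and MOV control 5 lies above the others for Sln (788 CPM).

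Leukocyte and fibroblast markers did not follow Sln, Casq2 or Atp2a2, with r between 0.065 and 0.289 for these pairs. They ran against the release apparatus, with r of −0.80 for Jph2 and −0.79 for Cacna1s with 9 leukocyte markers and −0.74 and −0.66 with 5 fibroblast markers. For Atp2a1 these correlations were −0.70 and −0.49, beside 0.88 with the 8 muscle fibre markers. Across the groups the leukocyte sum was 193 to 844 CPM in sham control, 193 to 794 CPM in sham mimic, 192 to 693 CPM in MOV control and 406 to 783 CPM in MOV mimic, and its part in the values of Jph2, Cacna1s and Atp2a1 was not tested. The 4 endothelial markers were all below 0 in MOV control against sham control (median −0.55) and in MOV mimic against sham mimic (median −0.67), with none called by edgeR. Their sum was 227.5 to 278.2 CPM in sham control, 121.7 to 242.3 CPM in MOV control, 255.1 to 344.5 CPM in sham mimic and 179.6 to 199.2 CPM in MOV mimic, so that only the mimic groups did not overlap. The mean deviation of these 4 markers had r of −0.40 to 0.20 with the 10 genes, and their part in the differences between MOV and sham was not tested.

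For 4 of the genes, the 3 genes outside the set with the most similar deviations were sought among 8386 genes with a mean of at least 10 CPM. For Atp2a1 these were Fem1a (r = 0.967), the glycolytic enzyme Tpi1 (0.966) and pyruvate kinase, listed as Pkm2 (0.963). For Atp2a2 they were the hexokinase Hk1 (0.899), slow troponin T, Tnnt1 (0.898), and Ldlrad3 (0.898). Pvalb went with Myoz1 of the fast-fibre Z disc (0.939), fast troponin I, Tnni2 (0.932), and glycogenin, listed as Gyg (0.925). Sln went with B3galt2 (0.933), the acetylcholine receptor subunit Chrnb1 (0.914) and Cpne2 (0.895). Each r is over 20 libraries.

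Beyond the 10 genes, 58 other calcium genes in 7 lists were examined, and 56 were tested in each comparison. None was called by edgeR in any of the 5 fits as described above. Other settings called a few. In MOV control against sham control DESeq2 called 5 of 56 (8.93%, beside 6.1% of all genes) and edgeR without the filter 2 of 57 (3.51% beside 1.37%). In edgeR the count was 2 of 56 without MOV control 5 (3.57% beside 2.08%) and 1 of 56 without sham control 3 (1.79% beside 2.81%). In MOV mimic against sham mimic DESeq2 called 1 of 56 (1.79% beside 1.49%). In MOV control against sham control 29 had a log2 fold change above 0 and 27 below, with a median of 0.08, and 21 of 56 (37.5%) had p under 0.05 before adjustment, 15 higher and 6 lower, against 18.2% of all genes. The smallest adjusted p in that comparison was 0.0551, for the calcium and calmodulin kinase Camk2d, named after its values were seen, which had 82.3 ± 22.2 CPM (SD, n = 5) in sham control and 182.2 ± 51.4 CPM in MOV control, a log2 fold change of 1.18 ± 0.21 (edgeR).

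By role, the medians of that comparison spread to either side of 0. The 10 voltage sensor and triad genes had a median of 0.28 with 7 above 0, and the 6 genes of mitochondrial calcium uptake 0.23 with 5 above 0. The 15 calcium sensing and calcineurin genes had a median of 0.12 with 8 above 0, and the 3 IP3 receptors 0.33 with 2 above 0. Below 0 were the medians of the 8 genes of plasma membrane and store-operated entry (−0.08), the 12 of the release channel and SR lumen (−0.10) and the 2 tested pump genes (−0.70). In MOV mimic against sham mimic the medians of these lists, in the same order, were −0.01, 0.20, −0.01, 0.10, −0.27, −0.03 and −0.03, and 11 of 56 genes (19.6%) had p under 0.05 before adjustment against 13.4% of all genes. In MOV mimic against MOV control 37 of the 56 were below 0, beside 7724 of 15220 genes in all. Below 0 were 9 of 10 voltage sensor and triad genes (median −0.20) and 10 of 12 of the release channel and SR lumen (median −0.10), and 2 of 56 (3.57%) had p under 0.05 before adjustment against 4.21% of all genes. In the same comparison the 9 leukocyte markers were all above 0 (median 0.51, none called by edgeR), and their part in these values was not tested.

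Stac3, which couples the voltage sensor to the release channel, had 247.9 ± 55.8 CPM in sham control and 198.5 ± 33.5 CPM in MOV control (SD, n = 5), a log2 fold change of −0.29 ± 0.17 (edgeR, adjusted p = 0.396). Trdn, which encodes triadin and anchors calsequestrin to the release channel, had 1064 ± 124 CPM and 1151 ± 250 CPM, a log2 fold change of 0.15 ± 0.16 (edgeR, adjusted p = 0.676). Mrln, which encodes myoregulin, another SERCA inhibitor of muscle, had 35.6 ± 15.9 CPM in sham control and 17.6 ± 10.4 CPM in MOV control, a log2 fold change of −1.0 ± 0.39 (edgeR, adjusted p = 0.199). Its estimate was thus of opposite sign to that of Sln, and neither passed edgeR's threshold. In MOV mimic against sham mimic Mrln gave −0.11 ± 0.40 (edgeR, adjusted p = 0.926).

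**Figure D5:**
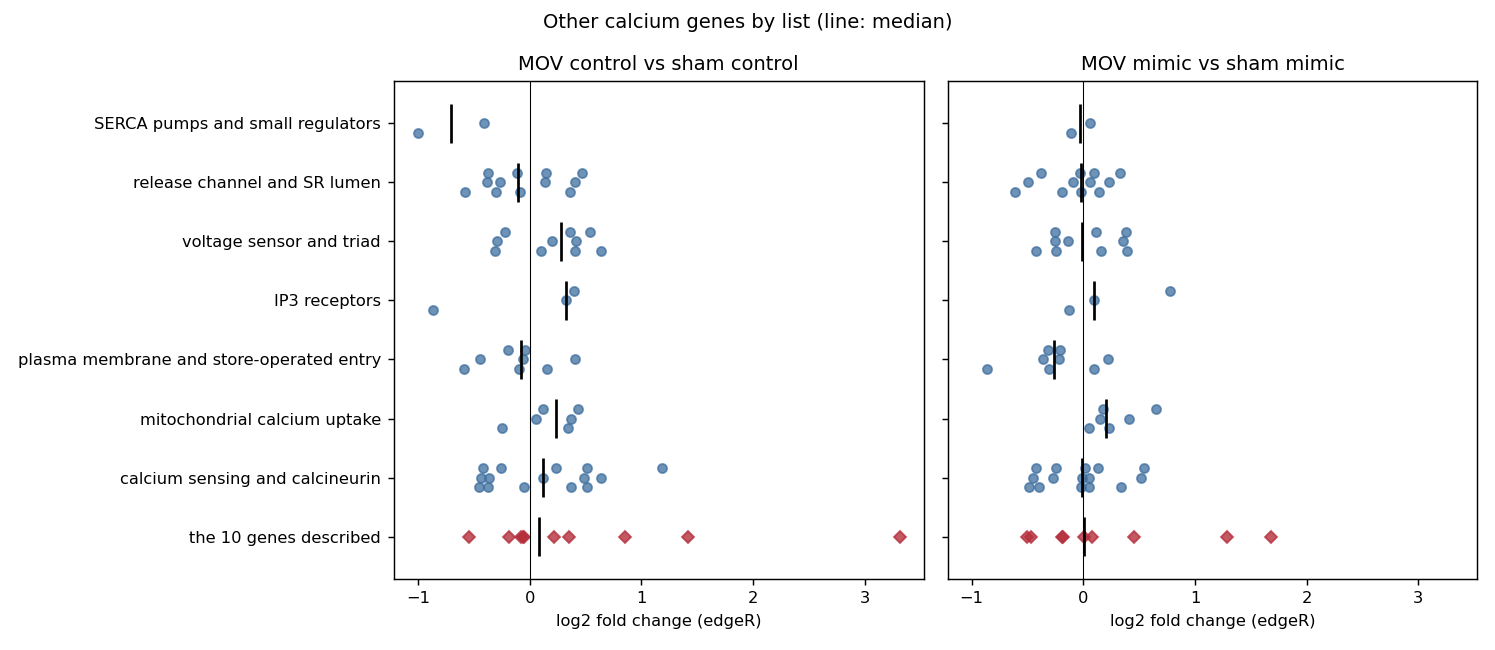
Log2 fold change (x axis, edgeR) of 56 other calcium genes by list (circles, 1 per gene) and of the 10 genes described (diamonds) for MOV control against sham control and MOV mimic against sham mimic, with the median of each row as a line. In the first panel Sln (3.31) and Casq2 (1.42) lie to the right of every other gene, and the rest lie between −1.0 and 1.18.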

How the data were processed

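RNA-seq libraries of plantaris muscle were made by the authors with the NEBNext Ultra II kit. Per the labels and the study's methods, reads were checked with FastQC 0.11.9, trimmed with Trim Galore 0.6.10 (cutadapt 4.4), aligned to GRCm38 with HISAT2 2.0.5 and counted with featureCounts 1.5.0-p3, and the authors tested with DESeq2 1.34.0. The authors deposited raw counts per Ensembl gene in 2 tables, one of control and one of mimic libraries. The release of the annotation, the strand option and the handling of multi-mapped reads are not given in the sources used here.

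From these counts, edgeR 4.0.16 (TMM, filterByExpr on the libraries compared, two-sided quasi-likelihood test, Benjamini-Hochberg over all genes tested, threshold 0.05) gave the comparisons of 5 against 5 libraries, and the interaction on 20. The alternatives were DESeq2 1.42.0, edgeR with the size factors of DESeq2, genes of low count kept, a replicate block, a joint fit of the 20 libraries and the omission of single libraries. Fits without the libraries numbered 5 of MOV or numbered 1 of sham were added after seeing the data. The scripts were tested on simulated data. No library was a copy of another: over 40 pairs the chi-square per gene was 13.9 to 168.5. Equal numbers were checked for pairing on 13943 genes: the mean correlation of deviations was 0.231 for equal numbers in MOV (0.0727 to 0.389) and 0.297 in sham (0.0087 to 0.767), so that not every pair was over 0.1 and the numbers were not taken to pair samples. In MOV against sham with the same virus each library is 1 muscle of a different mouse, so p-values measure the spread between mice. In mimic against control, and in the interaction, both muscles of the same mice entered without pairing. There p-values measure the spread between muscles.

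The 10 genes and all lists were chosen with earlier results of these data known. The rule for naming others was: list genes called by edgeR (none), Stac3, Mrln and Trdn, and the 3 genes of highest correlation for Atp2a1, Atp2a2, Pvalb and Sln with a mean of at least 10 CPM. Nos1 and Camk2d were named after their values were seen. Symbols were found for 32640 of 54532 genes and for 57 of 58 list genes, 7 through an older symbol. Lengths are union exons of GENCODE M1, coordinates and promoters RefSeq GRCm38.p6. CPM in correlations were logged with a prior count of 2. R 4.3.3 and Python 3.11.15 were used. A library at 0 counts allows up to 3 counts, counting error only.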

Additional observations from a re-analysis of the deposited data

Results flagged for a closer look

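Within each group of 5 libraries, the highest or lowest library of a gene was set against the spread of the others (Dixon's ratio of its gap to the group's range, critical value 0.71). Chance alone flags about 1 in 20 groups, and 6 of 40 sets of a gene and a group were flagged, which are not independent since 3 of them are the same library. Sham mimic 2 stood above the other sham mimic libraries for Atp2a2 (434.6 CPM), Sln (165.7 CPM) and Casq2 (291.8 CPM), and in this library the markers of satellite cells and regenerating fibres summed to 1573 CPM. For Atp2a1, sham mimic 1 was far above its group (29856 CPM), and so was MOV control 5 (18507 CPM). For Jph2, sham control 1 was far above its group (1143 CPM). What sets these libraries apart was not tested.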

How the results depend on the processing

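The count of the 10 genes called in MOV control against sham control, 0 with edgeR, was 2 with DESeq2, 2 without the filter, 3 with DESeq2 and the replicate block (Atp2a2, Sln and Casq2) and 0 to 2 when 1 library was left out, 2 being without sham control 3. With DESeq2 and the block, the other calcium genes called there were 4 of 56 (7.14%, beside 4.82% of all genes), and in MOV mimic against MOV control 2 of 56 (3.57% beside 0.834%). In MOV mimic against MOV control the count of the 10 was 1 with DESeq2 and the block (Casq2, −0.78, adjusted p = 0.0227) and 0 otherwise. Over all genes, the 1 called in MOV control against sham control became 913 with DESeq2, 388 without the filter, 722 with DESeq2 and the block, 36 with all 20 libraries in the fit, 318 without the MOV libraries numbered 5 and 0 to 426 with 1 library left out. For MOV mimic against sham mimic, 0 became 223, 1, 114, 3, 101 and 0 to 101 under the same changes. For MOV mimic against MOV control, 0 became 3 with DESeq2, 127 with DESeq2 and the block and 1 with all 20 libraries, and for the interaction 1 with DESeq2 and 5 with DESeq2 and the block. The cause of these differences was not tested. The size factors of DESeq2 in edgeR changed no count of calls. Total counts in place of TMM moved the median log2 difference of all genes from −0.01 to 0.17 in MOV control against sham control and from −0.04 to 0.18 in MOV mimic against sham mimic, so that differences are relative to TMM.

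The replicate block joins libraries of equal number, which the labels do not tie to 1 mouse. Between sham and MOV equal numbers are different mice, so that the blocked counts given for those comparisons match nothing within a mouse. Within MOV, 8 of 10 libraries correlated best with their own number (mean 0.231, unequal numbers −0.05), and within sham 5 of 10 (0.297 against −0.06), a hint from the data and not the design. The edgeR fit with the replicate block called none of the 10 genes in any comparison. It turned the signs of Pvalb in MOV mimic against sham mimic (−0.03, also −0.03 with DESeq2 and the block), Atp2a2 in MOV mimic against MOV control (−0.01, and 0.00 with DESeq2) and Sln in sham mimic against sham control (−0.44, and −0.37 with DESeq2). Sln in MOV mimic against sham mimic moved from 1.68 to 2.67 with the block (2.73 with DESeq2). The interaction of Sln, −1.63, was −1.66 to −0.54 over the other fits that kept every library. Without both MOV libraries numbered 5 it was −0.69.

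Signs turned in 51 of the alternatives over 20 differences, 39 of them with 1 library left out, and only 2 of the 51 touched a difference over 0.5 in size, the interactions of Sln and Casq2 without sham mimic 2. Pvalb in MOV mimic against sham mimic was −0.03 without the filter, −0.01 with all 20 libraries and −0.13 without the MOV libraries numbered 5. Without these libraries the interaction of Casq1 was 0.02, and without the sham libraries numbered 1 Cacna1s was 0.08 and Jph2 0.05 in MOV control against sham control. Leaving out single libraries gave these ranges that crossed 0. In MOV control against sham control they were −0.24 to 0.08 for Cacna1s, −0.17 to 0.05 for Jph2 and −0.12 to 0.02 for Casq1. For MOV mimic against sham mimic they were −0.03 to 0.23 for Ryr1, 0.00 to 1.47 for Casq2 and −0.13 to 0.12 for Pvalb. For MOV mimic against MOV control they were −0.06 to 0.24 for Atp2a1, −0.20 to 0.41 for Atp2a2 and −0.29 to 0.05 for Pvalb. For sham mimic against sham control they were −0.11 to 0.19 for Atp2a1, −0.65 to 0.04 for Atp2a2, −1.58 to 0.89 for Sln, −0.18 to 0.09 for Jph2 and −0.59 to 0.73 for Casq2. For the interaction of surgery and virus they were −0.13 to 0.23 for Atp2a1, −2.24 to 0.32 for Sln, −0.25 to 0.00 for Ryr1, −0.23 to 0.05 for Jph2, −0.32 to 0.02 for Casq1 and −1.41 to 0.06 for Casq2.

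Low counts kept Pln out of the 2 comparisons of MOV mimic with another group, and Ryr2 of the lists out of all.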
